A study of Rattus norvegicus with 12 samples.

Results

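MEIS and PBX genes encode homeodomain transcription factors of the TALE class. The 5 genes described here, Meis1, Meis2, Meis3, Pbx2 and Pbx3, were chosen by symbol from a table of 17419 genes, and all 5 were found in it. RNA had been measured in cultures of ventricular cardiomyocytes, the contractile heart cells, from newborn (P0) wildtype Sprague-Dawley rats, with fibroblasts separated off before plating. All 4 groups received 20 nM of small interfering RNA (siRNA) in total and were collected 48 h later. The control received 20 nM of a scrambled siRNA. The Btg1 knockdown and the Btg2 knockdown each received 10 nM of the targeting siRNA with 10 nM of scramble, and the double knockdown had 10 nM of both, with scramble left out. Btg1 and Btg2 are related genes whose proteins restrain proliferation. Each group had 3 libraries. The labels do not say whether these came from separate cultures, so the p-values measure only the spread between libraries, which may be technical.

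MEIS and PBX proteins bind DNA together, as pairs and together with HOX proteins, and binding to MEIS helps to keep PBX proteins in the nucleus. Meis1 is known in the mouse heart for restraining the division of cardiomyocytes after birth and for acting on genes of cyclin-dependent kinase inhibitors, and Hoxb13 is known as its partner there. Calcineurin, a calcium-dependent phosphatase, has been linked to the activity of Hoxb13. Meis2, Pbx2 and Pbx3 are known for roles in the development of the outflow tract and septa of the heart.

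Promoter sequences are shown for the members that changed in the results below, as far as a promoter table from RefSeq (assembly GRCr8) holds them. It matched 3 of the 5 members: Meis1 and Pbx2 with 1 entry each and Meis3 with 2. Each run is the 250 bases before the listed start, read 5′ to 3′ on the gene's strand. The counts were made on another build, rn5, and were not placed on these coordinates.
Meis1, chr14:97495084-97495333, minus strand: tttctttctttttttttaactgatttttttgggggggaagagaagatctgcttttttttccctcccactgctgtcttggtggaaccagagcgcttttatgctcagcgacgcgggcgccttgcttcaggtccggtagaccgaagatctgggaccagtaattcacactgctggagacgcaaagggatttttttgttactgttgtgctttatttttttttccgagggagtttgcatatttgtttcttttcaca
Meis3, chr1:85989800-85990049, plus strand: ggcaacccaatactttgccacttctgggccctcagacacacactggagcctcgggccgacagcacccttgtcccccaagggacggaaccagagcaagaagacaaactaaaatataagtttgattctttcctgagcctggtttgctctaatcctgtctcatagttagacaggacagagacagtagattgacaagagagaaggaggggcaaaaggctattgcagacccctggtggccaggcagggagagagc
Meis3, chr1:85990091-85990340, plus strand: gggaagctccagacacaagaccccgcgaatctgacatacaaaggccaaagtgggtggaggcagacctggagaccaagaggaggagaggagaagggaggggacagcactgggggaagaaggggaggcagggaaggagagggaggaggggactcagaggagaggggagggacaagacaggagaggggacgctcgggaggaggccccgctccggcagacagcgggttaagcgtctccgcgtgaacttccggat
Pbx2, chr20:4161033-4161282, minus strand: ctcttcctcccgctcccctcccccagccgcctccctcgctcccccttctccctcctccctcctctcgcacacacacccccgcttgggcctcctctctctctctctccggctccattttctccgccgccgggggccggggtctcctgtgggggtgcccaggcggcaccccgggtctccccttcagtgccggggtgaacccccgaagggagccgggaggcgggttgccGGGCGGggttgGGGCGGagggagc
Capitals mark the GC box GGGCGG. The Pbx2 window held 2, starting 24 and 13 bases before the start, and was 74.0% G and C. The Meis1 window was 43.6% G and C and the Meis3 windows were 52.4% and 63.2%, beside a median of 51.2% over 33469 promoters. GGGCGG was in 30.5% of those promoters, the MEIS recognition motif TGACAG in 15.8% and the composite PBX and HOX motif TGATNNAT in 7.96%. Both strands were searched, and none of the 4 windows held TGACAG or TGATNNAT.

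The libraries held 24434925 to 46206581 counts, so that 1 count was worth 0.0213 to 0.0421 CPM (counts scaled to library size, adjusted by TMM, the trimmed mean of M-values). The siRNA targets followed the labels. Btg1 averaged 283 CPM in scramble, 66.2 after Btg1 knockdown, 299 after Btg2 knockdown and 51.7 after double knockdown, and Btg2 averaged 139, 175, 85.2 and 68.7 CPM in the same order. Summed cardiomyocyte markers (7 of 8 in the table) lay at 21997 to 22729 CPM in scramble, 21055 to 23039 after Btg1 knockdown, 24599 to 26817 after Btg2 knockdown and 23790 to 24026 after double knockdown, above scramble in every library of the last 2 groups. The single markers did not all follow the sum. By the edgeR test described below, 1 of the 7 rose and 3 fell after double knockdown. After Btg1 knockdown 1 rose and 4 fell, and after Btg2 knockdown 2 rose and 0 fell. Among all 12535 tested genes, 38.9% passed after double, 36.5% after Btg1 and 30.0% after Btg2 knockdown. No listed marker was at 0 throughout a group. The cultures also held RNA of other cell types: summed fibroblast markers (9 of 9) lay at 20607 to 21352 CPM in scramble, 16698 to 19638 after Btg1 knockdown, 21072 to 22477 after Btg2 knockdown and 16757 to 18530 after double knockdown. In these bulk cultures, fewer cells of a type and less RNA per cell cannot be told apart.

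All 5 members were well expressed, and they kept one order of mean level in every group. On the TPM scale, which divides by gene length and so allows genes to be compared, scramble cultures held Meis2 at 77.9, Pbx2 at 43.6, Pbx3 at 39.4, Meis1 at 34.0 and Meis3 at 16.8 (means, n = 3). Meis2 lay above 84.4% of the genes in the table, and Meis3, the lowest, above 57.9%. The libraries of neighbouring genes in this order did not overlap in the scramble and Btg1 knockdown groups, while those of Pbx3 and Meis1 overlapped in the Btg2 and double knockdowns. Over all 12 libraries Meis2 had the narrowest range, 72.2 to 82.5 TPM, and Meis1 the widest by fold, 24.2 to 38.2 TPM. Meis2 made up 60.5 ± 0.638% of the summed MEIS level in scramble and 64.3 ± 0.875% after Btg1 knockdown (SD, n = 3 each). Meis3 made up 13.0 ± 0.665% in scramble and 10.8 ± 0.0404% after double knockdown (SD, n = 3 each).

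**Figure D1:**
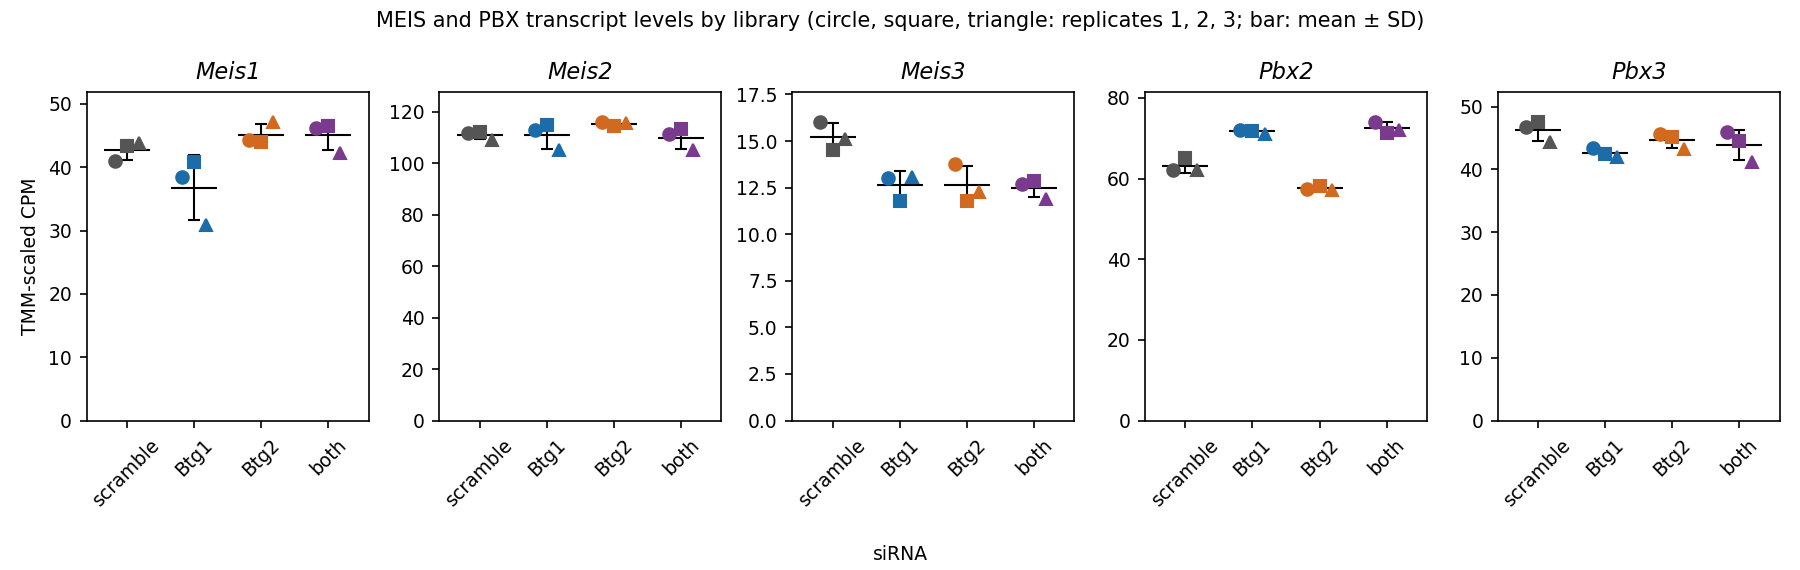
Level of each member in every library, in TMM-scaled CPM on a linear axis, with 1 point per library, the group mean as a horizontal line and the SD as a bar (n = 3). Pbx2 sits at 71.1 to 74.0 CPM in the 6 libraries with Btg1 siRNA and at 57.1 to 65.0 in the 6 without it, while Meis2 stays between 105 and 116 CPM throughout.

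Meis1, the member known for cardiomyocyte cell cycle arrest, was lower after Btg1 knockdown alone than in each other group. It stood at 41.0, 43.3 and 43.9 CPM in scramble replicates 1 to 3, 38.5, 40.9 and 31.0 after Btg1 knockdown, 44.2, 44.0 and 47.2 after Btg2 knockdown and 46.2, 46.6 and 42.3 after double knockdown. All 3 Btg1 knockdown libraries lay below all others, 2 of them closely, and replicate 3 lay far below. In edgeR's quasi-likelihood test, adjusted by Benjamini-Hochberg over 12535 genes, its log2 change against scramble was -0.21 ± 0.07 after Btg1 knockdown (SE, adjusted p = 0.028), a level 0.862 of that in scramble. Against the double knockdown and the Btg2 knockdown, the difference was larger. Meis1 was higher by 0.29 ± 0.07 on the log2 scale after double knockdown than after Btg1 knockdown (edgeR adjusted p = 0.0071), and differed by -0.29 ± 0.07 between the Btg1 and Btg2 knockdowns (adjusted p = 0.0032). The double knockdown and the Btg2 knockdown did not pass against scramble, at 0.07 ± 0.07 (edgeR adjusted p = 0.46, 95% interval -0.08 to 0.23) and 0.08 ± 0.07 (adjusted p = 0.45). The fall against scramble was lost without Btg1 knockdown replicate 3 (-0.11, edgeR adjusted p = 0.19), without scramble replicate 2 (adjusted p = 0.076) or scramble replicate 3 (adjusted p = 0.093), and with limma on TPM. The contrasts with the double and Btg2 knockdowns passed whichever library was left out, with log2 values of 0.18 to 0.37 and -0.37 to -0.19. The same replicate 3 of the Btg1 knockdown also held the highest mean of the cell cycle genes described below; the part of that in the Meis1 value was not tested.

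Meis2, the most abundant member, was the steadiest. It stood at 112, 112 and 109 CPM in scramble, 113, 115 and 105 after Btg1 knockdown, 116, 115 and 116 after Btg2 knockdown and 111, 113 and 105 after double knockdown. The Btg2 knockdown libraries lay just above those of scramble, and the other groups overlapped with scramble. No contrast passed: the log2 change against scramble was -0.01 ± 0.04 after double knockdown (SE, edgeR adjusted p = 0.84, 95% interval -0.10 to 0.07), -0.00 ± 0.04 after Btg1 knockdown (adjusted p = 0.99, interval -0.09 to 0.09) and 0.06 ± 0.04 after Btg2 knockdown (adjusted p = 0.34, interval -0.03 to 0.14). In the Btg1 knockdown 0.311% of tested genes had a smaller change.

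Meis3, the least abundant and least studied of the MEIS genes, fell in each knockdown, with fitted changes that lay close together. It stood at 16.0, 14.5 and 15.1 CPM in scramble, 13.0, 11.8 and 13.1 after Btg1 knockdown, 13.8, 11.8 and 12.3 after Btg2 knockdown and 12.7, 12.9 and 11.9 after double knockdown. All 9 knockdown libraries lay below all 3 scramble libraries. The log2 change was -0.28 ± 0.08 after double knockdown (SE, edgeR adjusted p = 0.0079), -0.27 ± 0.08 after Btg1 knockdown (adjusted p = 0.013) and -0.26 ± 0.08 after Btg2 knockdown (adjusted p = 0.018), or 0.821, 0.831 and 0.833 of the scramble level. The 3 comparisons share the scramble libraries. Adding the Btg2 siRNA to the Btg1 siRNA changed Meis3 by -0.02 ± 0.08 (edgeR adjusted p = 0.91, 95% interval -0.19 to 0.15), and the Btg1 and Btg2 knockdowns differed by -0.00 ± 0.08 (adjusted p = 0.98, interval -0.18 to 0.17). The bounds of these intervals are smaller in size than the fall itself, and leave room for smaller differences. The fall after double knockdown passed whichever library was left out (adjusted p = 0.011 to 0.044). That after Btg1 knockdown was lost without scramble replicate 1 (edgeR adjusted p = 0.065) or Btg1 knockdown replicate 2 (adjusted p = 0.068). That after Btg2 knockdown was lost without scramble replicate 1 (edgeR adjusted p = 0.082) or Btg2 knockdown replicate 2 (adjusted p = 0.074) or replicate 3 (adjusted p = 0.078).

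Pbx2, a DNA-binding partner of MEIS and HOX proteins, rose wherever the Btg1 siRNA was present and fell with the Btg2 siRNA alone. It stood at 62.1, 65.0 and 62.0 CPM in scramble, 72.1, 71.8 and 71.1 after Btg1 knockdown, 57.3, 58.2 and 57.1 after Btg2 knockdown and 74.0, 71.2 and 72.0 after double knockdown. The libraries fell into 3 levels with no overlap: Btg2 knockdown, scramble, and both groups with Btg1 siRNA. The log2 change against scramble was 0.20 ± 0.04 after double knockdown (SE, edgeR adjusted p = 0.00059), 0.18 ± 0.04 after Btg1 knockdown (adjusted p = 0.0013) and -0.13 ± 0.04 after Btg2 knockdown (adjusted p = 0.022), or 1.15, 1.14 and 0.912 times the scramble level. The contrast between knockdowns was larger: the double knockdown exceeded the Btg2 knockdown by 0.33 ± 0.04 (edgeR adjusted p = 2.1e-06) and the Btg1 knockdown exceeded it by 0.32 ± 0.04 (adjusted p = 2.6e-06). The double and Btg1 knockdowns differed by 0.01 ± 0.04 (edgeR adjusted p = 0.84, 95% interval -0.07 to 0.10). The rises passed whichever library was left out. The fall after Btg2 knockdown was lost without scramble replicate 2 (edgeR adjusted p = 0.12) or Btg2 knockdown replicate 1 (adjusted p = 0.057) or replicate 3 (adjusted p = 0.074).

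Pbx3, the other PBX member, passed in no comparison. It stood at 46.7, 47.6 and 44.4 CPM in scramble, 43.4, 42.5 and 42.0 after Btg1 knockdown, 45.7, 45.2 and 43.3 after Btg2 knockdown and 46.0, 44.5 and 41.2 after double knockdown. The Btg1 knockdown libraries lay below those of scramble without overlap, and the other groups overlapped with scramble. The log2 change was -0.12 ± 0.05 after Btg1 knockdown (SE, edgeR adjusted p = 0.082, 95% interval -0.22 to -0.01), -0.08 ± 0.05 after double knockdown (adjusted p = 0.27) and -0.05 ± 0.05 after Btg2 knockdown (adjusted p = 0.51).

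**Figure D2:**
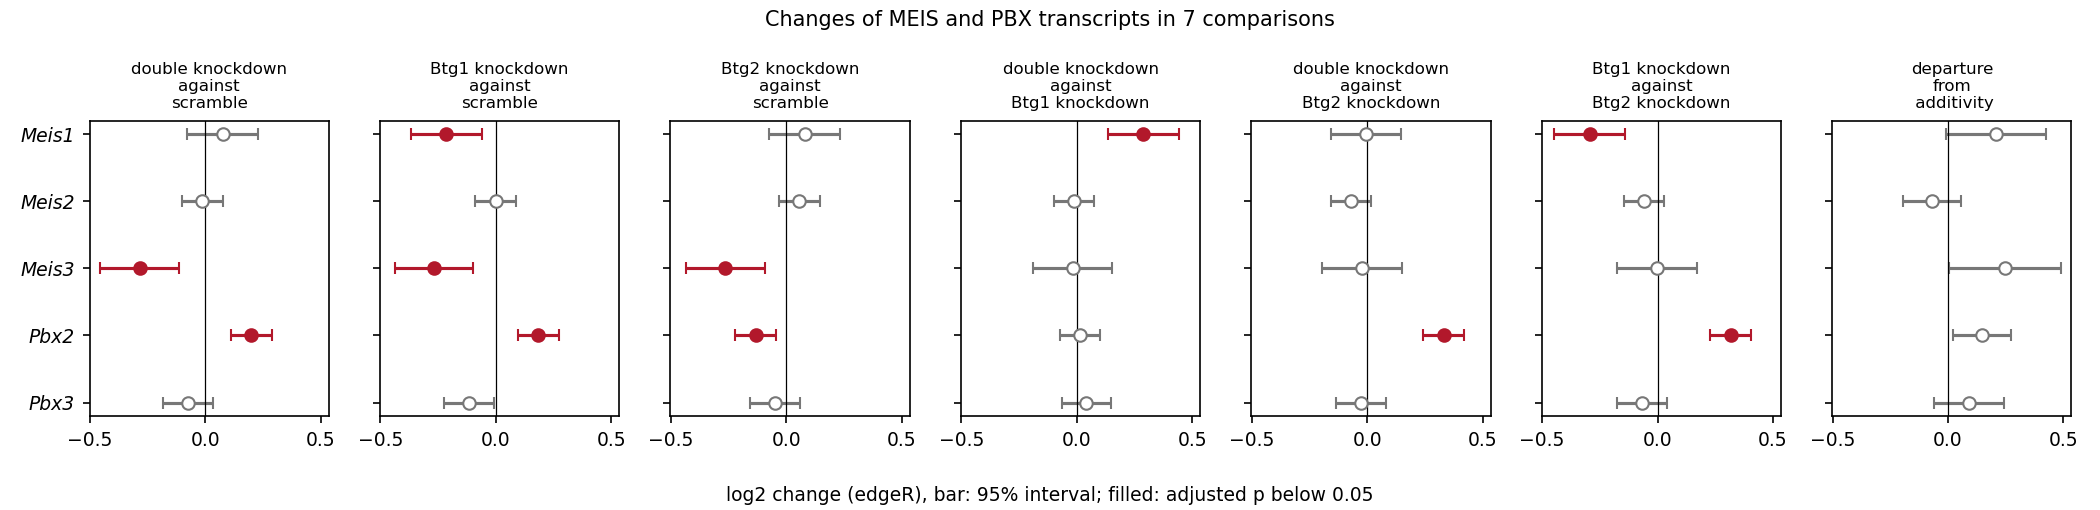
Log2 change of each member in the 3 comparisons with scramble the direct comparisons between knockdowns and the departure from additivity, with 95% intervals as bars from the edgeR fit and filled points for an adjusted p below 0.05. Meis3 lies at -0.28 to -0.26 in all 3 comparisons with scramble, and Pbx2 lies above 0 with Btg1 siRNA and below 0 with Btg2 siRNA alone.

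Against all tested genes, the share of members called was near the background in most comparisons, and the sizes of their changes were within the common range. In the double knockdown 2 of 5 members passed (Pbx2 higher, Meis3 lower), where 38.9% of all genes did, 19.4% higher and 19.5% lower. In the Btg1 knockdown 3 passed (Pbx2 higher, Meis1 and Meis3 lower), beside 36.5% of all genes, 18.7% higher and 17.8% lower. In the Btg2 knockdown 2 passed (Meis3 and Pbx2, both lower), beside 30.0% of all genes, 16.4% higher and 13.6% lower. Scaling by library size alone turned the share of higher genes among those Btg2 knockdown calls from 54.5% to 41.3%. The median absolute log2 change of all genes was 0.161, 0.151 and 0.138 in these comparisons, and 71.2%, 70.6% and 74.4% of genes changed by less than Meis3. Between knockdowns, 1 member passed in the double against the Btg1 knockdown (Meis1, higher), beside 22.3% of all genes, 10.3% higher and 11.9% lower. In the double against the Btg2 knockdown 1 passed (Pbx2, higher), beside 32.2%, 15.2% higher and 17.0% lower. In the Btg1 against the Btg2 knockdown 2 passed (Pbx2 higher, Meis1 lower), beside 40.8%, 20.3% higher and 20.6% lower. How many of all genes had libraries without overlap between groups was not counted, so such separation does not set a member apart. Meis1 and Meis2 after Btg2 knockdown, and Pbx3 after Btg1 knockdown, also lay apart from scramble without passing.

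Whether the double knockdown departed from the sum of the single knockdowns was tested as an interaction on the log2 scale, and no member passed edgeR at the adjusted threshold, beside 15.1% of all genes, 4.99% with a positive and 10.1% with a negative departure. At an unadjusted p under 0.05 there were 2, Pbx2 (0.15 ± 0.06, SE, edgeR adjusted p = 0.1) and Meis3 (0.25 ± 0.12, adjusted p = 0.17). DESeq2 and limma called 0. For Meis1 the departure was 0.21 ± 0.10 (SE, edgeR adjusted p = 0.2, 95% interval -0.01 to 0.43). The sum of the single changes would have put Pbx2 and Meis3 lower after double knockdown than they were, by these amounts.

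**Figure D3:**
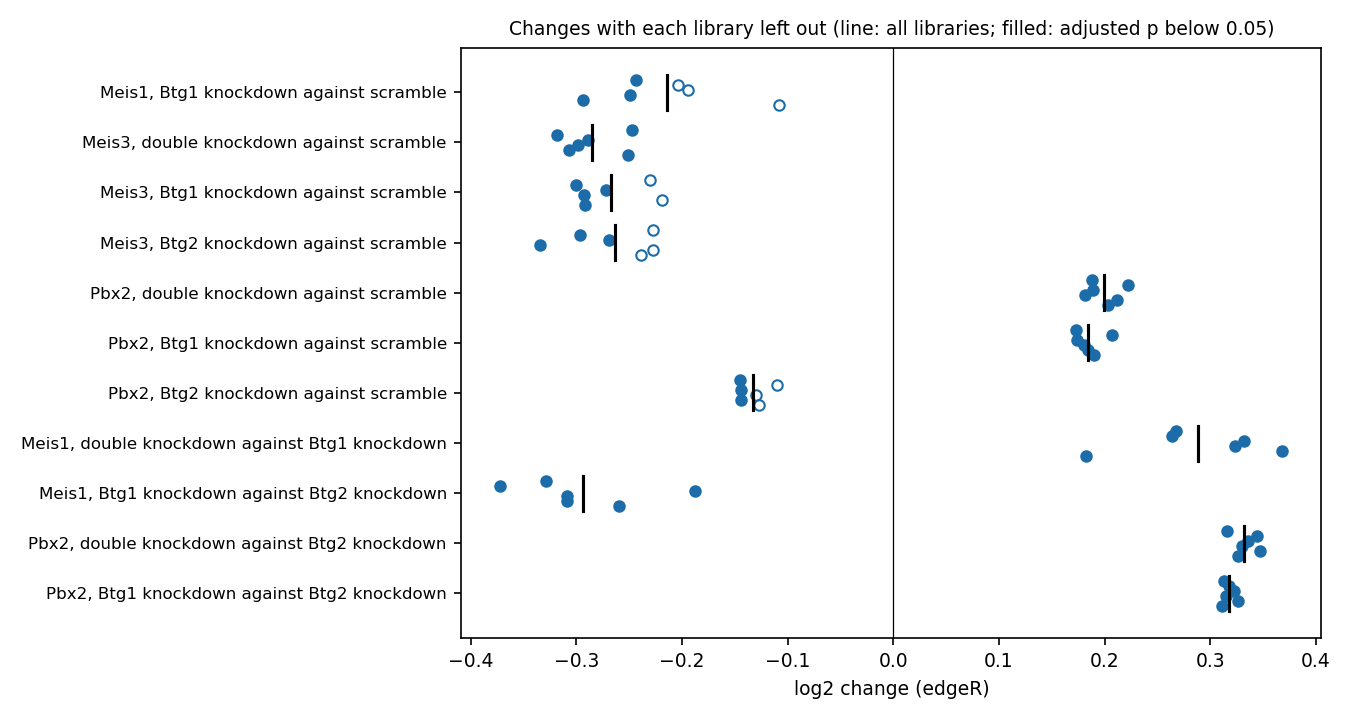
Log2 change of the member calls when each library is left out in turn, 1 point per fit, filled where the adjusted p is below 0.05, beside the value with all libraries as a line. The fall of Meis1 after Btg1 knockdown spans -0.29 to -0.11, and the rise of Pbx2 after double knockdown spans 0.18 to 0.22.

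Several other TALE homeobox genes had larger log2 changes against scramble than any member. Of 13 listed, 12 were in the table and 11 were tested. In the double knockdown 1 rose and 5 fell (median log2 change -0.22, all tested genes -0.01), after Btg1 knockdown 1 rose and 6 fell (median -0.27) and after Btg2 knockdown 4 rose and none fell by edgeR's test (median 0.10). Over all tested genes, 38.9%, 36.5% and 30.0% were called in these comparisons. Without scramble replicate 1 the Btg1 knockdown count was 4, all lower. Pbx4 was at or below 0.45 CPM in every library, and its call as lower after Btg1 knockdown (-1.43 ± 0.53, SE, edgeR adjusted p = 0.038) rested on 2 to 6 counts in each Btg1 knockdown library and was lost in 4 of the 6 fits that left out a library. Pknox2, a PREP gene whose protein also pairs with PBX, fell after double knockdown by 0.34 on the log2 scale (edgeR adjusted p = 0.012), a call lost without double knockdown replicate 1 (adjusted p = 0.091). Its relative Pknox1 rose after Btg2 knockdown by 0.28 ± 0.10 (SE, edgeR adjusted p = 0.036), a call lost in 5 of the 6 fits that left out a library. Tgif1, a repressor that competes with MEIS proteins for related DNA sites, fell from 64.9 ± 0.452 CPM in scramble to 48.4 ± 2.49 after double knockdown (SD, n = 3 each). Its log2 change was -0.42 ± 0.05 there (SE, edgeR adjusted p = 3.3e-07), -0.38 ± 0.05 after Btg1 knockdown (adjusted p = 1.4e-06) and -0.07 ± 0.05 after Btg2 knockdown (adjusted p = 0.27). Tgif2, its closest relative, rose by 0.48 ± 0.07 after double knockdown (SE, edgeR adjusted p = 3.1e-06) and by 0.31 ± 0.07 after Btg2 knockdown (adjusted p = 0.00095). Its rise of 0.20 ± 0.07 after Btg1 knockdown (edgeR adjusted p = 0.023) was lost without scramble replicate 1 (adjusted p = 0.098), scramble replicate 2 (0.084) or Btg1 knockdown replicate 2 (0.15), and with limma.

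The Iroquois genes Irx3, Irx4 and Irx5 fell in both groups with Btg1 siRNA. Irx4, known for its ventricle-restricted expression, averaged 164 ± 6.46 CPM in scramble, 126 ± 7.49 after Btg1 knockdown, 166 ± 3.04 after Btg2 knockdown and 139 ± 8.13 after double knockdown (SD, n = 3 each). Irx3, known for a role in ventricular conduction, changed by -0.51 ± 0.06 after Btg1 knockdown (SE, edgeR adjusted p = 5.1e-07) and -0.22 ± 0.06 after double knockdown (adjusted p = 0.0054). Irx5, a repressor known from the gradient of potassium current across the ventricle wall, changed by -0.39 ± 0.08 after Btg1 knockdown (SE, edgeR adjusted p = 0.0008) and 0.47 ± 0.08 after Btg2 knockdown (adjusted p = 0.00017). Its fall of 0.30 after double knockdown (edgeR adjusted p = 0.0069) was lost without scramble replicate 2 (adjusted p = 0.055). Set beside them, the largest member change against scramble was that of Meis3, -0.28 after double knockdown.

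**Figure D4:**
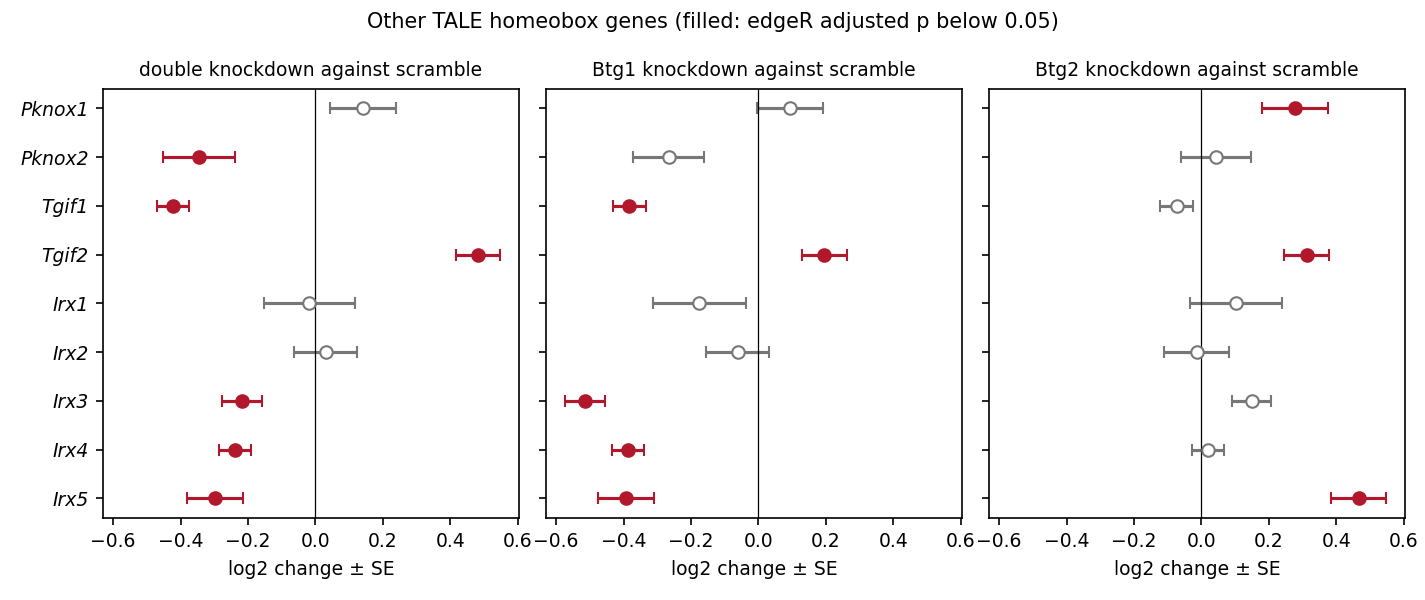
Log2 change against scramble of 9 TALE relatives, with the SE as bars and filled points for an adjusted p below 0.05, in the double, Btg1 and Btg2 knockdowns. Tgif1 is lower in both groups with Btg1 siRNA, at -0.42 and -0.38, and Tgif2 is highest after double knockdown, at 0.48.

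HOX partners were barely measured in these cultures. Of 39 HOX genes listed, 29 were in the table and 3 passed the filter on low counts (Hoxb3, Hoxa13 and Hoxb9). The highest level of any HOX gene was 1.1 TPM, for Hoxb3, and Hoxb13 had 1 count in 1 library and 0 in the other 11. The summed HOX level was 2.5 to 3.9 TPM in scramble, 4.3 to 5.6 after Btg1 knockdown, 3.1 to 4.0 after Btg2 knockdown and 2.2 to 4.1 after double knockdown. By edgeR, 0 of the 3 passed against scramble in any knockdown, 0 had an unadjusted p under 0.05, and DESeq2 called 0, while limma on TPM called 1 after Btg1 knockdown.

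Of 14 listed regulators and cofactors of MEIS and PBX proteins, 12 were tested. In the double knockdown 4 rose and 3 fell, beside 38.9% of all tested genes called. After Btg1 knockdown 3 rose and 3 fell, beside 36.5%, and after Btg2 knockdown 3 rose and 1 fell, beside 30.0%. Pbxip1, whose protein binds PBX proteins and inhibits their DNA binding, rose from 269 ± 5.20 CPM in scramble to 324 ± 9.14 after double knockdown (SD, n = 3 each), by 0.27 ± 0.04 on the log2 scale (SE, edgeR adjusted p = 2.5e-06). Its changes in the Btg1 and Btg2 knockdowns were 0.05 ± 0.04 (edgeR adjusted p = 0.35) and 0.07 ± 0.04 (adjusted p = 0.14). Ppp3ca, a catalytic subunit of calcineurin, changed by -0.22 ± 0.05 after double knockdown (SE, edgeR adjusted p = 0.0015), -0.21 ± 0.05 after Btg1 knockdown (adjusted p = 0.0027) and 0.27 ± 0.05 after Btg2 knockdown (adjusted p = 0.00024). Ppp3cb, another catalytic subunit, was higher in all 3, by 0.16 ± 0.05 (SE, edgeR adjusted p = 0.018), 0.15 ± 0.05 (adjusted p = 0.029) and 0.19 ± 0.05 (adjusted p = 0.011) after double, Btg1 and Btg2 knockdown. Those calls were lost in 4, 5 and 3 of the 6 fits that left out a library. Rcan1, a feedback inhibitor of calcineurin, rose by 0.29 ± 0.05 after Btg1 knockdown (SE, edgeR adjusted p = 0.00021) and 0.36 ± 0.05 after Btg2 knockdown (adjusted p = 3.5e-05), and its change after double knockdown was 0.02 ± 0.05 (adjusted p = 0.84). The corepressor gene Hdac3 changed by -0.19 ± 0.05 after double knockdown (SE, edgeR adjusted p = 0.0022). Without Btg1 knockdown replicate 3, the count after Btg1 knockdown was 3 (1 higher, 2 lower).

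Genes of cell cycle arrest and hypoxia did not move in one direction. Some of them are known as downstream of Meis1, but the lists hold other genes too and do not measure its activity. Among 9 tested inhibitors of cyclin-dependent kinases and pocket proteins, 2 rose and 5 fell after double knockdown, beside 38.9% of all tested genes called. After Btg1 knockdown 2 rose and 1 fell, beside 36.5%, and after Btg2 knockdown 1 rose, beside 30.0%. Leaving out scramble replicate 3 or double knockdown replicate 1 lowered the double knockdown count from 7 to 4, and leaving out scramble replicate 2 lowered it to 3, and the single call after Btg2 knockdown, that of Cdkn1c, did not hold throughout, as given below. Cdkn2a and Cdkn2b, at the locus that encodes p16 and p15, changed by -0.27 ± 0.09 (SE, edgeR adjusted p = 0.016) and -0.14 ± 0.04 (adjusted p = 0.0089) after double knockdown. The Cdkn2a call was lost without scramble replicate 2 (edgeR adjusted p = 0.097) or double knockdown replicate 2 (0.10), and the Cdkn2b call without scramble replicate 2 (0.054). Neither passed after Btg1 knockdown, at -0.08 ± 0.09 (edgeR adjusted p = 0.53) and 0.09 ± 0.04 (adjusted p = 0.078). The 1 gene of this list that fell after Btg1 knockdown was Cdkn1b, at -0.36 ± 0.06 (SE, edgeR adjusted p = 2.3e-05). Cdkn1a, which encodes p21, changed by 0.12 ± 0.04 after double knockdown (SE, edgeR adjusted p = 0.04), a call lost without scramble replicate 1 (0.071), scramble replicate 3 (0.17), double knockdown replicate 1 (0.11) or double knockdown replicate 3 (0.11) and with limma (0.056), and by -0.06 ± 0.04 after Btg1 knockdown (adjusted p = 0.3). Cdkn1c, which encodes p57, rose by 0.59 ± 0.06 after double knockdown (SE, edgeR adjusted p = 9.0e-08), 0.48 ± 0.06 after Btg1 knockdown (adjusted p = 1.7e-06) and 0.21 ± 0.06 after Btg2 knockdown (adjusted p = 0.015). The last of these was lost without scramble replicate 3 (edgeR adjusted p = 0.065), Btg2 knockdown replicate 1 (0.083) or Btg2 knockdown replicate 2 (0.054), and with limma (0.063 and 0.060). Of 10 tested hypoxia genes, 2 fell after double knockdown, beside the same 38.9%. After Btg1 knockdown 2 rose and 1 fell, beside 36.5%, and after Btg2 knockdown 3 rose and 1 fell, beside 30.0%. These counts do not set the hypoxia list apart from all tested genes. The double knockdown count was 1 without scramble replicate 1, scramble replicate 3, double knockdown replicate 2 or double knockdown replicate 3, and 4 without double knockdown replicate 1. The Btg2 knockdown count fell from 4 to 2 without scramble replicate 2, scramble replicate 3 or Btg2 knockdown replicate 1. Vegfa, an angiogenic growth factor, changed by -0.37 ± 0.04 after Btg1 knockdown (SE, edgeR adjusted p = 8.8e-08), -0.22 ± 0.04 after double knockdown (adjusted p = 9.2e-05) and 0.26 ± 0.04 after Btg2 knockdown (adjusted p = 1.9e-05). Hif1a, the oxygen-regulated transcription factor, passed after Btg2 knockdown, at 0.18 ± 0.04 (SE, edgeR adjusted p = 0.0038).

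Cell cycle genes were higher after Btg1 knockdown, the group with the lowest Meis1, and lower in the other knockdowns. Of 31 tested, 21 rose and 2 fell after Btg1 knockdown (median log2 change 0.35), 2 rose and 21 fell after double knockdown (median -0.33) and 1 rose and 18 fell after Btg2 knockdown (median -0.28). Over all tested genes, 36.5%, 38.9% and 30.0% were called in the same order. Without scramble replicate 3 the double knockdown count was 15 and the Btg2 knockdown count 11. The latter was also 11 without Btg2 knockdown replicate 1. Relative to scramble, the mean of the 31 genes was 0.24, 0.16 and 0.34 on the log2 scale in Btg1 knockdown replicates 1 to 3, -0.33, -0.22 and -0.30 after double knockdown and -0.30, -0.17 and -0.25 after Btg2 knockdown. Scramble libraries lay between, at -0.10, 0.01 and 0.09. E2f1, an activator of S-phase genes, rose by 0.62 ± 0.11 after Btg1 knockdown (SE, edgeR adjusted p = 0.00013) and changed by -0.34 ± 0.11 after double knockdown (adjusted p = 0.022). The latter call was lost without scramble replicate 2 (edgeR adjusted p = 0.12), scramble replicate 3 (0.10) or double knockdown replicate 1 (0.087), and with limma (0.056). Ccnd3, a D-type cyclin, changed by -0.70 ± 0.04 after Btg1 knockdown (SE, edgeR adjusted p = 1.5e-11) and -0.84 ± 0.04 after double knockdown (adjusted p = 6.8e-13). Pbx2 was higher in both the Btg1 and double knockdowns, whose cell cycle genes lay on opposite sides of scramble, and Meis3 was lower in all 3 knockdowns. Whether the level of Meis1, Pbx2 or Meis3 had a part in the cell cycle genes was not tested.

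Among 11 tested cardiac transcription factors, 3 rose and 1 fell after double knockdown, beside 38.9% of all tested genes called. After Btg1 knockdown 7 rose and 2 fell, beside 36.5%, and after Btg2 knockdown 4 rose, beside 30.0%. Gata4, a core cardiac regulator, rose by 0.15 ± 0.04 (SE, edgeR adjusted p = 0.0015), 0.27 ± 0.04 (adjusted p = 2.2e-06) and 0.14 ± 0.04 (adjusted p = 0.0058) in the double, Btg1 and Btg2 knockdowns. Its relative Gata6 changed by -0.19 ± 0.04 after double knockdown (SE, edgeR adjusted p = 0.00022) and -0.16 ± 0.04 after Btg1 knockdown (adjusted p = 0.0014).

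Markers of other cell types moved with the groups too, and their part in the member results was not tested. Summed endothelial markers (8 of 8 in the table) lay at 104 to 110 CPM in scramble, 89.3 to 98.4 after Btg1 knockdown, 86.9 to 90.1 after Btg2 knockdown and 72.8 to 77.1 after double knockdown. Summed macrophage markers (8 of 8) lay at 35.8 to 40.5 CPM in scramble, 29.7 to 32.8 after Btg1 knockdown, 25.4 to 26.8 after Btg2 knockdown and 29.2 to 31.0 after double knockdown. Like Meis3, both sums were below scramble in every library of all 3 knockdowns, but the single markers were less uniform. For the counts that follow, 38.9%, 36.5% and 30.0% of all tested genes were called after double, Btg1 and Btg2 knockdown. Of 8 endothelial markers, 1 rose and 6 fell after double knockdown by edgeR. After Btg1 knockdown 1 rose and 1 fell, and after Btg2 knockdown 0 rose and 4 fell. Of 8 macrophage markers 0 rose, and 2, 1 and 5 fell after double, Btg1 and Btg2 knockdown. Summed fibroblast markers, given above, were below scramble in the groups with Btg1 siRNA, the same groups in which Pbx2 was higher, and overlapped with scramble after Btg2 knockdown. Of 9 fibroblast markers, 8 fell in each of the double and Btg1 knockdowns, and 1 rose and 5 fell after Btg2 knockdown (3 called without scramble replicate 2). Schwann and neuronal markers (5 of 6) summed to 31.6 to 35.3 CPM in scramble and 22.9 to 29.5 after Btg1 knockdown. They summed to 28.3 to 30.5 after Btg2 knockdown and 23.5 to 26.2 after double knockdown. This sum, too, was below scramble in every library of all 3 knockdowns. Of its 3 tested markers, 2, 2 and 0 fell after double, Btg1 and Btg2 knockdown, and 0 rose. Summed smooth muscle markers (7 of 7) lay at 2088 to 2236 CPM in scramble, 2291 to 2889 after Btg1 knockdown, 2332 to 2669 after Btg2 knockdown and 2151 to 2325 after double knockdown. They were above scramble in every library of both single knockdowns, and highest in Btg1 knockdown replicate 3. Summed epicardial markers (4 of 5) lay at 77.7 to 83.1 CPM in scramble, 87.4 to 88.2 after Btg1 knockdown, 82.9 to 83.4 after Btg2 knockdown and 82.0 to 84.4 after double knockdown, above scramble without overlap only after Btg1 knockdown. Erythroid markers (4 of 5) summed to 1.07 to 2.07 CPM over the 12 libraries.

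Likeness to Meis3 and Pbx2 was measured as the root mean square difference of log2 CPM over the 12 libraries, each gene centred on its own mean, among 9602 genes averaging at least 5 CPM. The genes named were chosen as nearest over the same 12 libraries that are tested. Distances below the median and changes like those of the member follow from that choice, and their p-values are no separate evidence. Nearest to Meis3 were Lpar1, a lysophosphatidic acid receptor (0.05), Nupr1, a stress-induced chromatin protein (0.06), and Pdia6, an endoplasmic reticulum disulfide isomerase (0.07), beside a median of 0.18 over all genes. Pdia6 changed by -0.26 ± 0.04 after double knockdown (SE, edgeR adjusted p = 6.8e-06). Near to Pbx2 by this measure were Macroh2a1, a variant histone (0.03), and Got2, the mitochondrial aspartate aminotransferase (0.03), beside a median of 0.18. Macroh2a1 rose by 0.24 ± 0.04 after double knockdown (SE, edgeR adjusted p = 0.00011), and its change of -0.11 ± 0.04 after Btg2 knockdown did not pass (adjusted p = 0.077).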

How the data were processed

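Per the labels' protocols, an Ovation kit amplified the total RNA, which was made into Nextera XT libraries and sequenced in pairs. Per the submitters' processing notes, the tools were STAR, featureCounts, cutadapt, Trim Galore and FastQC (no versions) and the rat build was rn5; for the strand setting and the annotation, the sources used here give nothing. Raw counts and TPM values rounded to 0.1 were deposited by the authors. Even numbers (13201) outnumbered odd ones (10440) among small counts, those from 1 to 10. Whether both mates of a pair were counted was not tested; if they were, the counts given here can exceed the number of fragments.

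Counts of 17419 genes in 12 libraries were tested with edgeR 4.0.16 (R 4.3.3, limma 3.58.1): filterByExpr kept 12535 genes and removed 4884, scaling was by TMM, and a robust quasi-likelihood fit had 1 mean per group. P-values were adjusted by Benjamini-Hochberg over all tested genes and called at 0.05. SE was obtained as the absolute log2 change divided by the root of F, and 95% intervals use the fit's degrees of freedom. TPM served only for levels between genes.

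The members and lists were chosen with earlier results of these data known. From each list the rule named up to 4 genes with the smallest p after double knockdown and those called in all 3 comparisons with scramble, and for members called in at least 2 of these, the 3 genes of most similar pattern. The text gives a selection of them, and some are not reported here. Pbx4, Pknox1, Pknox2, Rcan1, Cdkn1a, Cdkn1b and Hoxb13, which the rule did not name, were added after their values were seen.

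On counts simulated for the double knockdown against scramble over 12535 genes, recovery was 93 of 100 for 2-fold changes, 43 of 50 for 1.5-fold and 22 of 50 for 1.2-fold, and 5 of 163 calls were false. The simulation held 163 calls and the data 4873 in this comparison, so the adjusted threshold was stricter in the simulation. Its recovery need not carry over to the data. Replicates were not duplicates (chi-square per degree of freedom 4.18 to 27.0). Alternatives were limma on log2(TPM + 0.1) or log2(TPM + 1), a block for the replicate number, a fit of only the compared groups, unfiltered counts or a stricter minimum (1 CPM, at least 6 libraries), scaling by library size or by RLE, DESeq2 1.42.0, and leaving out each library. Counts come from amplified RNA without molecular identifiers, so reads are not independent molecules.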

Additional observations from a re-analysis of the deposited data

Results flagged for a closer look

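By the interaction test, the effect of the Btg2 siRNA differed with and without the Btg1 siRNA for 11 genes named here, none of them a MEIS or PBX member. Rcan1, the calcineurin inhibitor, departed from the sum of the single knockdowns by -0.64 ± 0.08 on the log2 scale (SE, edgeR adjusted p = 6.7e-06): it averaged 568 ± 27.8 CPM in scramble, 695 ± 64.8 after Btg1 knockdown, 729 ± 9.74 after Btg2 knockdown and 574 ± 28.9 after double knockdown (SD, n = 3 each). Ppp3ca departed by -0.29 ± 0.07 (SE, edgeR adjusted p = 0.0085), Gata4 by -0.26 ± 0.05 (adjusted p = 0.0012) and Cdkn2b by -0.22 ± 0.06 (adjusted p = 0.01). The siRNA targets did too, Btg1 by -0.44 ± 0.06 (SE, edgeR adjusted p = 2.9e-05) and Btg2 by -0.65 ± 0.06 (adjusted p = 1.4e-07). These 6 departures passed whichever library was left out.

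The other 5 did not hold throughout. E2f1 departed by -0.57 ± 0.16 (SE, edgeR adjusted p = 0.02) and lost the call without Btg1 knockdown replicate 3 (0.058) or Btg2 knockdown replicate 2 (0.064). Cdkn1a departed by 0.20 ± 0.06 (SE, edgeR adjusted p = 0.035) and lost the call in 8 of the 12 fits that left out a library. Nupr1, one of the genes nearest to Meis3, departed by 0.23 and lost it in 6 of the 12 (edgeR adjusted p = 0.0091 to 0.081). Irx5, a TALE homeobox gene, departed by -0.37 ± 0.12 (SE, edgeR adjusted p = 0.036): it averaged 30.3 ± 2.61 CPM in scramble, 41.7 ± 4.91 after Btg2 knockdown, 23.1 ± 1.52 after Btg1 knockdown and 24.7 ± 1.92 after double knockdown (SD, n = 3 each). The call was lost in 7 of the 12 fits that left out a library (edgeR adjusted p = 0.0095 to 0.11 over the 12), with library size alone (0.068) and with limma (0.11). Pbxip1, the PBX-binding inhibitor, departed by 0.15 ± 0.05 (SE, edgeR adjusted p = 0.046), and lost the call in 9 of the 12 fits (adjusted p = 0.034 to 0.12), without a filter (0.054) and with limma (0.064).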

How the results depend on the processing

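The members called after Btg2 knockdown against scramble numbered 2, and 0 to 2 when each library was left out: 1 without scramble replicate 1, scramble replicate 2, Btg2 knockdown replicate 1 or Btg2 knockdown replicate 2, and 0 without Btg2 knockdown replicate 3. Counts of members called in the other comparisons moved by at most 1.5 times. Beside the losses given above, the fall of Meis1 after Btg1 knockdown was lost with only the groups compared (edgeR adjusted p = 0.064) and with limma on log2(TPM + 1) and log2(TPM + 0.1) (adjusted p = 0.062 and 0.061). No call of a member changed direction. Changes near 0 that did not pass changed sign under some settings, and the cause was not tested. For the Btg1 knockdown against scramble, Meis2 was at 0.0014 with DESeq2 and 0.0012 with RLE scaling, and between -0.026 and 0.036 with libraries left out; after double knockdown it lay between -0.036 and 0.019. For the double against the Btg1 knockdown, limma gave 0.0056 and 0.0056 for Meis2 and 0.0042 and 0.0045 for Meis3 (pseudocounts 1 and 0.1); leaving out libraries gave -0.049 to 0.020 for Meis2, -0.066 to 0.016 for Meis3 and -0.0028 to 0.027 for Pbx2. For the double against the Btg2 knockdown, library size alone gave 0.026 for Meis1, 0.0094 for Meis3 and 0.0056 for Pbx3, and limma gave 0.013 and 0.013 for Meis1 and 0.0054 and 0.0059 for Meis3; leaving out libraries gave -0.030 to 0.038 for Meis1, -0.054 to 0.049 for Meis3 and -0.059 to 0.018 for Pbx3. For Meis3 in the Btg1 against the Btg2 knockdown, library size alone gave 0.025, limma 0.0012 and 0.0014, and leaving out libraries -0.042 to 0.066. The 7 calls among inhibitors of cyclin-dependent kinases after double knockdown were 4 with limma, and the 1 after Btg2 knockdown was 0 with limma and 2 with DESeq2, library size alone, no filter, a stricter filter or only the groups compared. Library size alone moved the share of higher genes among all calls from 47.3% to 58.2% in the double against the Btg2 knockdown and from 33.1% to 49.7% in the interaction, with median shifts of at most 0.037. With the replicate number as a block, Meis3 after double knockdown was at -0.28 (edgeR adjusted p = 0.0083) and Pbx2 at 0.20 (adjusted p = 0.0012), and no call of a member changed; of the related genes, the block lost the departure of Pbxip1 (adjusted p = 0.063) and the call of Tgif2 in the double against the Btg2 knockdown (0.062). Deviations of same-numbered libraries correlated by -0.092 to 0.060 over 18 pairs, beside -0.107 to 0.133 over 36 pairs of different number. Taken over all tested genes, these values cannot exclude a shared origin that affects some genes only, and the labels do not give the origin. With 3 libraries a group, a member that did not pass may still have changed within its interval.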
